A study of Saccharomyces cerevisiae with 6 samples.

Results

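The 9 yeast genes VTC1, VTC2, VTC3, VTC4, PHM6, PHM7, PHM8, PPN1 and PPX1 serve the making, storage and breakdown of polyphosphate or are named for the phosphate response. They were taken by gene symbol in the platform annotation, with earlier results of these data known, and all 9 were among the 5449 genes tested. Each had 1 probe set, and each lay above the array's background level on all 6 arrays. Transcripts were read with Affymetrix Yeast Genome 2.0 arrays in Saccharomyces cerevisiae strain 26972c, an ammonium transport mutant with the mep1-1 allele, a deleted MEP2, MEP3 listed without a mutation, and a ura- marker. In 3 cultures the cells carried the plasmid pYES3 with GmbHLHm1, also called SAT1, a transcription factor gene of soybean from the bHLH (basic helix-loop-helix) family, driven by a galactose-inducible promoter. In the other 3 cultures they carried pYES3 without an insert. All cultures of both groups had been grown first with 2% glucose and 0.1% proline, then moved to 2% galactose and 1 mM ammonium (as 0.5 mM ammonium sulfate) at 28 °C and sampled after 12 h. The labels give neither the phosphate level of the medium nor the number of transformants used. The question addressed was which yeast transcripts differ between cells with the soybean factor and cells with the empty vector.

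Polyphosphate is a chain of phosphate units that yeast stores in its vacuole. The VTC (vacuolar transporter chaperone) complex makes it from ATP on the cytosolic side of the membrane and passes the growing chain into the vacuole, and polyphosphatases cut it back to phosphate. In budding yeast, low phosphate lets Pho81 hold back the Pho80-Pho85 kinase, and the bHLH factor Pho4 then works with Pho2 in the nucleus to switch on genes for phosphate uptake, phosphate release and polyphosphate synthesis. Several of the 9 genes were named PHM, for phosphate metabolism, in the study of that response, and VTC1 to VTC4 and PPN1 carry PHM names as synonyms.

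Of the 9 genes, 4 rose in GmbHLHm1 cells and none fell. PHM6 rose 13.4-fold, VTC3 3.51-fold, PHM8 2.20-fold and VTC4 1.54-fold. The values of VTC1, VTC2, PPN1, PPX1 and PHM7 overlapped between the groups, with log2 changes between -0.04 and 0.09. The groups did not overlap for 4 of the 9 genes, and for 33.2% of the 5449. Over all 5449 genes, 7.45% were higher and 4.64% lower by the same test, limma's moderated two-sided test with Benjamini-Hochberg adjustment at 0.05. These are 406 and 253 genes, and 331 and 332 after quantile normalization of the tested values. Past the test and at least 2-fold higher were 3 of the 9 genes, against 0.936% of all genes. The median log2 change was 0.09 over the 9 genes and 0.02 over all tested genes. The same 4 genes passed and the same 5 did not in each of the 16 other fits tried, which include the 6 that leave out 1 array, and the 4 also passed at a threshold of 0.01.

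**Figure D1:**
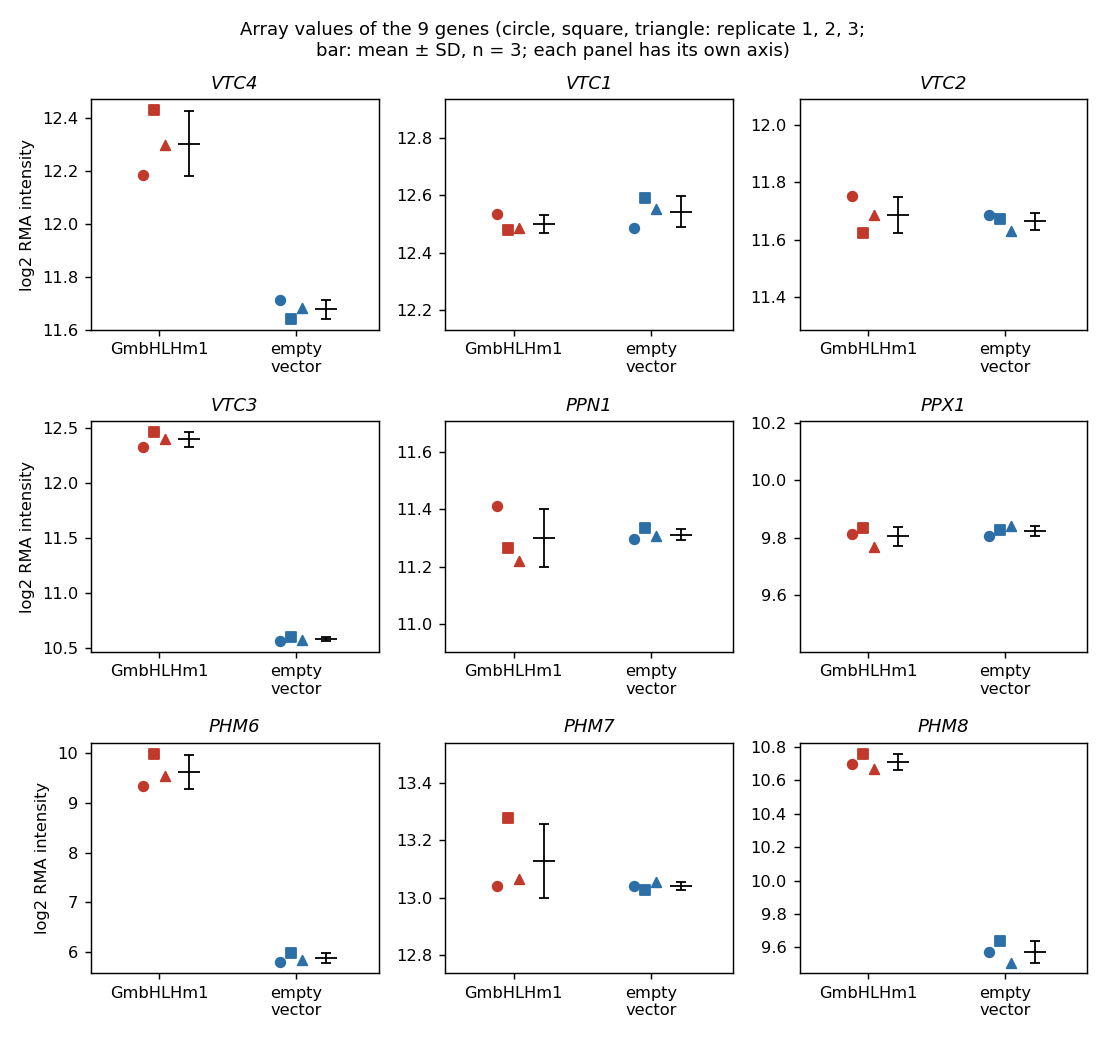
Log2 RMA intensity (vertical axis, 1 panel per gene with its own axis) of the 9 genes on each array, GmbHLHm1 on the left and empty vector on the right of each panel. Points are arrays and bars the mean with its SD (n = 3 per group). The groups lie apart for VTC4, VTC3, PHM6 and PHM8 and overlap for the other 5.

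The values behind these calls are linear intensities, as the authors deposited them, and tests and changes are on the log2 scale. An intensity is comparable between arrays for 1 gene, but not between genes. A few facts of the series bear on all of them. MEP2, which the strain lacks, had linear intensities of 12.4 to 16.2 in GmbHLHm1 cells and 18.6 to 20.0 in empty vector cells, all under the arrays' background level of 23.2 to 26.9. Other genes tied to the strain or plasmid also differed between the groups. URA3, in a strain labelled ura-, had a log2 change of 1.35 (limma, adjusted p = 0.0105, and 0.0533 without empty vector replicate 1). MEP3 had a log2 change of 0.91 (limma, adjusted p = 0.0138, and up to 0.0677 without empty vector replicate 1 or 2), and MEP1 one of -0.46 (limma, adjusted p = 0.0109, and 0.052 without empty vector replicate 3). Their part in the changes of the 9 genes was not tested. Across genes, the spread between the 3 GmbHLHm1 arrays had a median SD of 0.0875 on the log2 scale, and that between the empty vector arrays 0.0502. The 16 controls for the large ribosomal RNAs (18S and 25S) averaged log2 values of 7.83 to 8.27 on the GmbHLHm1 arrays and 8.80 to 9.46 on the empty vector arrays, and the part of this in the changes of the 9 genes was not tested. The log2 difference between 3′ and 5′ control probe sets, a sign of RNA quality, was available for 7 transcripts. Its group means were higher on the GmbHLHm1 arrays for ACT1 and WBP1, by 0.04 and 0.02, and lower for TDH1, RIP1, EAF5, SRB4 and SPT15, by differences of -0.04, -0.05, -0.05, -0.14 and -0.26. For SRB4 the groups did not overlap, with 3.51 ± 0.08 on the GmbHLHm1 arrays and 3.65 ± 0.08 on the empty vector arrays (SD, n = 3 per group), and for the other 6 they did. The part of these differences in the changes of the 9 genes was not tested. The labels speak of independent replicates grown from starter cultures, so the p-values cover only the spread among these cultures. If each group came from 1 transformant, a difference between transformants and one made by GmbHLHm1 cannot be told apart. RNA was extracted from whole cultures, so a change in every cell and a larger change in part of the cells cannot be told apart.

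Among the genes that make polyphosphate, the response was uneven. VTC4 encodes the subunit whose cytosolic domain is the polyphosphate polymerase. Its linear intensity was 4647, 5515 and 5026 on the GmbHLHm1 arrays, against 3350.1, 3189 and 3288 on the empty vector arrays. The lowest GmbHLHm1 array lay above the highest empty vector array. The log2 change was 0.62 ± 0.07 (SE; limma, adjusted p = 0.00182), a fold of 1.54 with a 95% interval of 1.38 to 1.72. Its adjusted p ran from 7.18e-05 to 0.0343 over the 16 other fits and was highest without moderation of the variance. By the size of its rise VTC4 ranked 110 of the 5449 genes.

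VTC3 encodes 1 of the large regulatory subunits, which carry an SPX domain, a sensor of inositol pyrophosphates. It read 5125, 5641 and 5402 in linear intensity on the GmbHLHm1 arrays, against 1517, 1556 and 1527 on the empty vector arrays. All GmbHLHm1 arrays were more than 3 times as bright as any empty vector array. The log2 change was 1.81 ± 0.05 (SE; limma, adjusted p = 3.15e-06), a fold of 3.51 with a 95% interval of 3.23 to 3.81. It stayed between 1.78 and 1.85 over the 16 other fits, and VTC3 ranked 21 from the top.

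VTC2 encodes the other large regulatory subunit, which takes the place of Vtc3 in a second form of the complex. The arrays read 3446, 3158 and 3294 in linear intensity on the GmbHLHm1 side, against 3298, 3267 and 3167 on the empty vector side. The groups overlapped and the log2 change was 0.02 ± 0.05 (SE; limma, adjusted p = 0.807). VTC1, the small subunit that consists of the membrane domain, had 5931, 5702 and 5742 on the GmbHLHm1 arrays, against 5736, 6163 and 6011 on the empty vector arrays. These overlapped as well, with a log2 change of -0.04 ± 0.05 (SE; limma, adjusted p = 0.618). The 95% intervals of the fold ran from 0.937 to 1.10 for VTC2 and from 0.898 to 1.05 for VTC1. A change as large as that of VTC4 therefore lies outside both intervals.

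The log2 ratio between subunits on each array was compared for 3 pairs. These were chosen with the changes of the genes known, so the shifts restate those changes and are no separate evidence. The zero of such a ratio is set by the probe sets and has no meaning, so only its shift between the groups is read. VTC3 over VTC2 averaged 0.71 ± 0.13 on the GmbHLHm1 arrays and -1.08 ± 0.04 on the empty vector arrays (SD, n = 3 per group), a shift of 1.79 or 3.46-fold. VTC3 over VTC4 averaged 0.09 ± 0.06 on the GmbHLHm1 arrays and -1.10 ± 0.06 on the empty vector arrays, a shift of 1.19. VTC4 over VTC1 averaged -0.20 ± 0.15 on the GmbHLHm1 arrays and -0.87 ± 0.09 on the empty vector arrays, a shift of 0.67. In each of these pairs the 3 arrays of one group lay apart from the 3 of the other. The exact permutation test, two-sided, gave p = 0.1 for each pair and 0.1 after Benjamini-Hochberg adjustment over the 3, which is the smallest value that 3 against 3 allows.

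**Figure D2:**
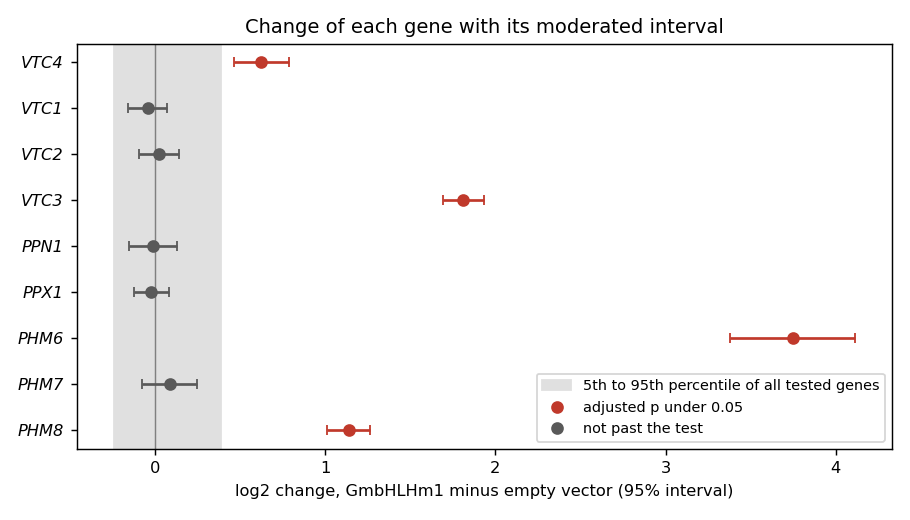
Log2 change (horizontal axis, GmbHLHm1 minus empty vector) of each gene with its 95% interval from limma, with the 5th to 95th percentile of all tested genes shaded. The intervals of PHM6, VTC3, PHM8 and VTC4 lie above the shaded band, which runs from -0.24 to 0.39, and those of the other 5 include 0.

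Neither polyphosphatase gene passed the test. PPN1 encodes a polyphosphatase of the vacuole that cuts chains from within. Linear intensities of PPN1 were 2726, 2459.7 and 2388 on the GmbHLHm1 arrays, against 2516, 2583 and 2532 on the empty vector arrays. The empty vector values fell inside the range of the GmbHLHm1 values. The log2 change was -0.01 ± 0.06 (SE; limma, adjusted p = 0.918), with a 95% interval of the fold from 0.899 to 1.09. PPX1, the cytosolic polyphosphatase that removes single phosphates from the chain end, had 899, 912 and 871 on the GmbHLHm1 arrays, against 896, 908 and 917 on the empty vector arrays, and the groups overlapped. Its log2 change was -0.02 ± 0.04 (SE; limma, adjusted p = 0.807), with a 95% interval of the fold from 0.919 to 1.06.

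The 3 genes still called PHM differed widely. PHM6 encodes a small protein of unknown function. The probe set read 648, 1020.2 and 746 in linear intensity on the GmbHLHm1 arrays, against 55.9, 63.5 and 57.4 on the empty vector arrays. The empty vector values lay only about 2 to 3 times above the background level, and all GmbHLHm1 values were at least 10 times as high as any of them. The log2 change was 3.75 ± 0.16 (SE; limma, adjusted p = 2.06e-05), a fold of 13.4 with a 95% interval of 10.4 to 17.3. PHM6 ranked 5 from the top of all tested genes. With 16 added to each intensity before the log, its log2 change was 3.43.

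PHM8 encodes a soluble phosphatase that acts on lysophosphatidic acid and on nucleotides and so frees phosphate. Linear intensities of PHM8 were 1665, 1735 and 1629 on the GmbHLHm1 arrays, against 762, 796 and 727 on the empty vector arrays. The groups lay far apart beside the spread within each. The log2 change was 1.14 ± 0.05 (SE; limma, adjusted p = 3.46e-05), a fold of 2.20 with a 95% interval of 2.02 to 2.40. PHM8 ranked 42 from the top.

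PHM7, a membrane protein gene of unknown function, had linear intensities of 8427, 9917 and 8570.3 on the GmbHLHm1 arrays, against 8418, 8338 and 8502 on the empty vector arrays. GmbHLHm1 replicate 1 lay within the empty vector range, replicate 3 just above it and replicate 2 well above it. The log2 change was 0.09 ± 0.07 (SE; limma, adjusted p = 0.466), and it was 0.01 without replicate 2. The 95% interval of the log2 change was -0.07 to 0.25.

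**Figure D3:**
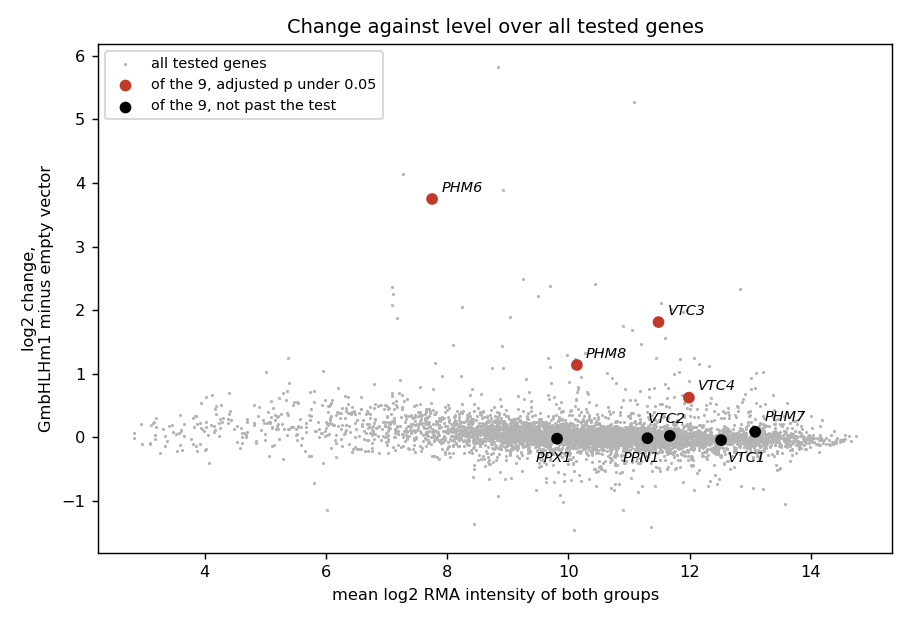
Log2 change (vertical axis, GmbHLHm1 minus empty vector) against the mean log2 RMA intensity of both groups (horizontal axis) for all 5449 tested genes in grey, with the 9 genes marked. PHM6 lies at the lower end of the levels of the 9, and the genes that did not pass the test lie within the dense band around 0.

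Within the GmbHLHm1 group, replicate 2 was the highest array for all 4 raised genes. It deviated from the group mean by 0.37 log2 units for PHM6, 0.13 for VTC4, 0.07 for VTC3 and 0.05 for PHM8. PHM7 and PPX1 were also highest there, with 0.15 and 0.03, and VTC1, VTC2 and PPN1 were highest on replicate 1. Among all 406 genes that were higher in GmbHLHm1 cells, replicate 2 was the highest array for 43.8%. PHO84, the high-affinity phosphate transporter gene, deviated by -0.01 on that array. Of the other raised Pho4-driven genes given below, GIT1, GDE1, CTF19, PHO8, PHO11 and SPL2 were also highest on replicate 2. PHO84, PHO5 and PHO81 were not. On the GmbHLHm1 arrays, in replicate order, log2 values were 10.60, 11.25 and 10.83 for GIT1 and 10.58, 10.97 and 10.51 for GDE1. Without GmbHLHm1 replicate 2 the log2 change was 3.56 for PHM6, 0.56 for VTC4, 1.78 for VTC3 and 1.11 for PHM8, and all 4 passed the test.

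Genes with a like pattern were sought by the root mean square distance over the 6 arrays, after each gene's log2 values were centred on its own empty vector mean, and the nearest 2 are named. VTC4 lay nearest to ECL1 and ATG13, at 0.03 and 0.07 log2 units. VTC3 lay nearest to VHR2 and HXK2, at 0.12 and 0.14. PHM8 lay nearest to the acid phosphatase gene PHO11 and to HMS1, a yeast bHLH gene, at 0.07 for each. PHM6 lay nearest to RIM4 and BAP3, at 0.14 and 0.30. The 10 genes nearest to the members that did not pass the test lay within 0.0231 log2 units. None of these 10 passed it, which follows from their choice as genes close to members with little change. They were MGR3 and BOS1 for VTC1, RPL43A and RPN2 for VTC2, RPF1 and HRT1 for PPN1, YNL165W and EMC6 for PPX1, and ARP8 and PIB1 for PHM7. Each distance is a description over 6 arrays in 2 groups and is dominated by the difference between the groups.

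The nearest tested genes on either side of the 9 were examined, since adjacent genes that are transcribed away from each other share an upstream region. Between VTC2 and SEC4, PPX1 and RPS4B, and PHM7 and ADH1 lies 1 untested gene each, so these pairs are not adjacent. Of the 18 nearest tested neighbours, 2 rose and 2 fell, where 12.1% of all genes passed in either direction. CTF19, a kinetochore protein gene and the divergent neighbour of VTC3 on chromosome XVI, had linear intensities of 383, 477 and 411 on the GmbHLHm1 arrays, against 222, 185 and 242 on the empty vector arrays. The groups did not overlap, and its log2 change was 0.97 ± 0.12 (SE; limma, adjusted p = 0.00269). ULP1, on the other side of VTC3, had a log2 change of -0.01 (limma, adjusted p = 0.963).

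Both tested neighbours of PPN1 on chromosome IV passed the test, which PPN1 itself did not. YHP1, a divergent homeobox repressor gene, rose by a log2 change of 0.54 (limma, adjusted p = 0.004), and TSA2, a peroxiredoxin gene, fell by 0.65 on the log2 scale (limma, adjusted p = 0.00134). The neighbours of PHM6, RRP45 and MRX10, had log2 changes of 0.26 and 0.04 and did not pass the test, nor did those of VTC4, MAD3 and RPC17, with -0.01 and 0.02. Next to PHM8 on chromosome V, the divergent ARB1 had a log2 change of -0.04 (limma, adjusted p = 0.72). KRE29, on the other side, fell by 0.33 (limma, adjusted p = 0.0367), a call that was lost without GmbHLHm1 replicate 1 or without any single empty vector array (adjusted p up to 0.141).

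None of the 8 neighbours of VTC1, VTC2, PPX1 and PHM7 passed the test. These were TDA2, ALD5, SEC4, MSH4, RPN10, RPS4B, ADH1 and ATG34, with log2 changes between -0.05 for TDA2 and 0.13 for ALD5.

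**Figure D4:**
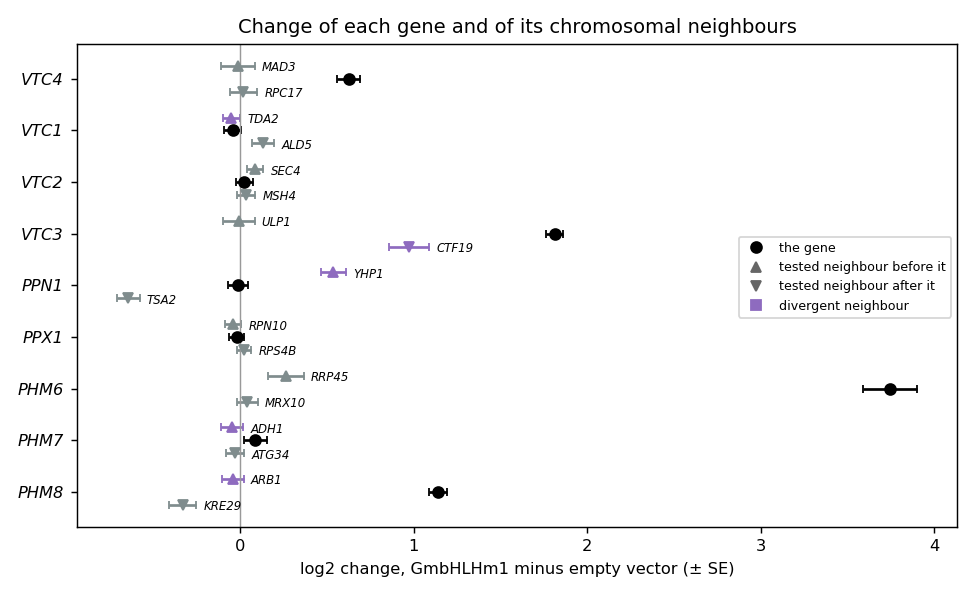
Log2 change (horizontal axis, GmbHLHm1 minus empty vector, bars ± SE) of each of the 9 genes and of the nearest tested genes before and after it on the chromosome, with divergent neighbours in purple. ADH1 is drawn as divergent from PHM7, though an untested gene lies between them. CTF19 lies to the right with VTC3, while the neighbours of VTC4, PHM6 and PHM8 lie near or below 0 apart from RRP45 at 0.26.

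The other genes of the pathway were taken as lists. Of 16 further genes of the phosphate response under Pho4, 14 were tested. Of these 9 rose and none fell, against 7.45% and 4.64% of all genes, with a median log2 change of 0.91. PHO8, PHO81, DDP1 and VIP1 also stand in a list below, and CTF19 is the neighbour of VTC3 named above. PHO84 rose most, with linear intensities of 13403, 13383 and 13717 on the GmbHLHm1 arrays, against 334, 338 and 377 on the empty vector arrays. The glycerophosphoinositol transporter gene GIT1 rose 5.18-fold and the secreted acid phosphatase gene PHO5 2.95-fold. The others that rose were PHO11, PHO8, CTF19, GDE1, SPL2 and PHO81. PHO11 is nearly identical to PHO12, which the annotation used here does not name, so its signal may hold both. The remaining 5 genes, PHO89, DDP1, PHO86, VIP1 and PIH1, had log2 changes between -0.24 and 0.24. PHM6 thus lay between PHO84 and GIT1 in size, VTC3 between GIT1 and PHO5, and PHM8 close to PHO11, while VTC4 was smaller than 8 of the 9 raised genes of the list, all but PHO81. These differences in order were not tested.

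Of 7 genes of PHO signalling and low-affinity uptake 1 rose, against 7.45% of all genes. PHO81, the inhibitor of the Pho80-Pho85 kinase and itself a Pho4 target, rose by a log2 change of 0.27 (limma, adjusted p = 0.0133), and each fit without 1 of the empty vector arrays lost the call, at adjusted p values up to 0.0654. PHO4, PHO2, PHO80, PHO85, PHO87 and PHO90 had log2 changes between -0.19 and 0.11 and did not pass.

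Of 8 tested genes for other polyphosphate enzymes and for the inositol pyrophosphates that SPX domains bind, 1 rose, against 7.45% of all genes. PLC1, the phospholipase C gene at the head of inositol phosphate synthesis, rose by a log2 change of 0.21 (limma, adjusted p = 0.0403), and this call was lost in 5 of the 6 fits that left out 1 array (adjusted p up to 0.152). KCS1 and VIP1, the kinase genes for inositol pyrophosphates, had log2 changes of 0.10 and 0.04. IPP1, the inorganic pyrophosphatase gene, had -0.09. DDP1 had the largest change of those that did not pass, 0.16 (limma, adjusted p = 0.0757). VTC5 and PPN2, 2 more genes of polyphosphate metabolism, were not analysed here.

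The vacuolar proton pump supplies the gradient that polyphosphate synthesis by VTC depends on. Of its 20 tested subunit and assembly genes 1 rose, against 7.45% of all genes. This was the assembly factor gene VPH2, with a log2 change of 0.30 (limma, adjusted p = 0.0258). It did not pass without GmbHLHm1 replicate 3 or without empty vector replicate 1 or 3 (adjusted p up to 0.109). The other 19 lay between -0.15 and 0.10, and the median of the 20 was -0.01.

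Of 5 genes for phosphate export, phosphatase and hydrolases of the vacuole 1 rose and 1 fell, against 7.45% and 4.64% of all genes. PHO8, the vacuolar alkaline phosphatase gene, rose 2.05-fold. PHO8 read 4739.8, 5569 and 5395 in linear intensity on the GmbHLHm1 arrays, against 2511, 2513 and 2636 on the empty vector arrays (limma, adjusted p = 0.000186). PHO91, which exports phosphate from the vacuole, had a log2 change of -0.14 (limma, adjusted p = 0.212). PRB1, a vacuolar protease gene, fell by 0.23 on the log2 scale, and its limma adjusted p of 0.0162 became up to 0.0876 without any 1 empty vector array. PEP4, another vacuolar protease gene, had a log2 change of 0.18 with no overlap of the groups, and did not pass (limma, adjusted p = 0.0695). ATG15 had a log2 change of -0.03 (limma, adjusted p = 0.909).

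Polyphosphate also holds metal ions and basic amino acids in the vacuole. Of 12 genes for the vacuolar transport of such cations 2 rose and 2 fell, against 7.45% and 4.64% of all genes. The median log2 change of the 12 was -0.08. VBA3, a vacuolar basic amino acid transporter gene, rose 4.22-fold, with linear intensities of 293, 271 and 276 on the GmbHLHm1 arrays, against 61.5, 67.5 and 70.1 on the empty vector arrays (limma, adjusted p = 4.65e-06). It has a close paralog, VBA5, and cross-hybridization between them was not tested. VBA2, of the same function, fell by 0.33 on the log2 scale (limma, adjusted p = 0.0187, and up to 0.0911 without any 1 empty vector array). FET5 rose by 0.19 and the zinc transporter gene ZRC1 fell by 0.19, each with an adjusted p of 0.0425 that was lost in 5 of the 6 fits that left out 1 array, up to 0.147 for FET5 and 0.158 for ZRC1.

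**Figure D5:**
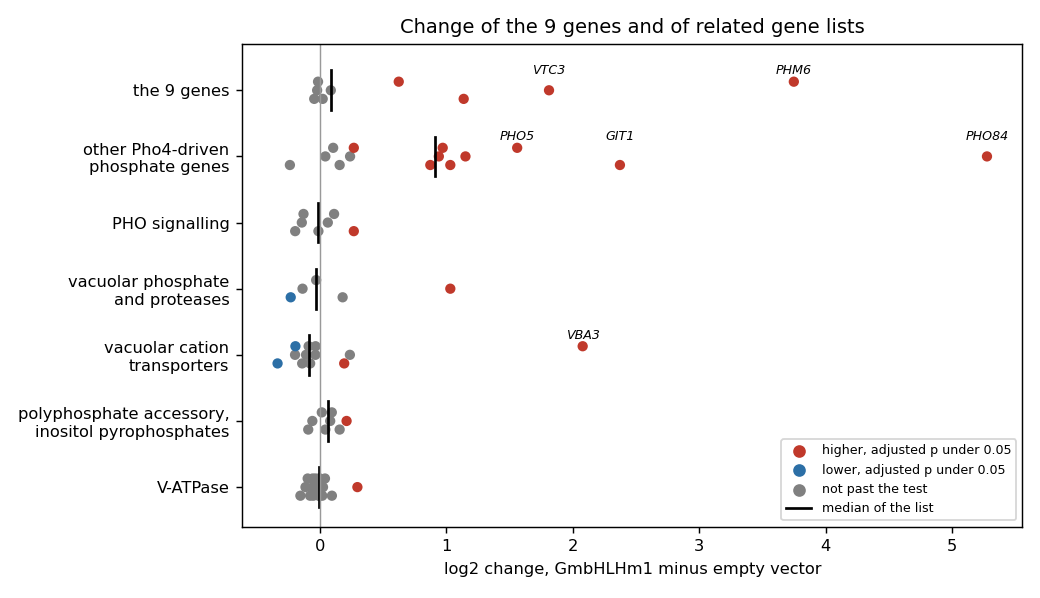
Log2 change (horizontal axis, GmbHLHm1 minus empty vector) of the 9 genes and of 6 lists of related genes, 1 point per tested gene, with the median of each list as a black bar. Raised genes number 4 among the 9 and 9 among the 14 other Pho4-driven phosphate genes tested, while 19 of the 20 proton pump genes lie between -0.15 and 0.10.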

How the data were processed

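The authors deposited 1 table of intensities on a linear scale for 6 arrays, made with RMA per the submitters' processing notes. The values span 5.00 to 28314, from which a linear scale was inferred. Because RMA equalizes the arrays' distributions, a shift common to all transcripts is not visible. The software version is not given in the sources used here. Of 10928 probe sets 5498 matched a gene of assembly R64 (names and gene order were taken from it), and the brightest probe set stood for each of 5449 genes. Neighbours' orientation was read from the locus names. The background level is the 95th percentile of 1746 probe sets annotated to genes outside R64. Log2 values were fitted with limma 3.58.1 in R 4.3.3 (lmFit, eBayes, two-sided, neither filter nor block) and adjusted by Benjamini-Hochberg over 5449 genes. On simulated data of 5449 genes the fit called 85.0% of changes of 0.5 log2 units, 96.1% of 1 and 99.4% of 2, and 52 of 26245 unchanged genes. The simulation had normal noise of the same SD in both groups and 200 changed genes in each of 5 draws. The measured groups differed in spread, so the rates hold for the simulated setting only. Exact permutation tests used scipy 1.17.1. The number of arrays limits the precision.

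The 9 genes, the lists and the tests were chosen with earlier results of these data known. The rule for named genes takes all 9, the nearest 2 patterns and both tested neighbours of each, and from each list at most 3 top and 3 bottom genes past the test; lists of 7 or fewer may be named in full. The further Pho4-driven genes were also named beyond that, to account for each. So were DDP1, KCS1, VIP1 and IPP1 of the polyphosphate and inositol pyrophosphate list, none of which passed the test. Alternatives were a replicate block, other scalings, array weights, leaving out dim probe sets, other variance priors, other probe set choices, a pseudocount of 16, a threshold of 0.01, and leaving out each array.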

Additional observations from a re-analysis of the deposited data

How the results depend on the processing

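Under every alternative run, 4 of the 9 genes passed the limma test, and these were VTC3, VTC4, PHM6 and PHM8, with no change of sign. Signs turned for VTC2 and PPN1, which did not pass in any fit. VTC2 had a log2 change of -0.0024 with median centring. With 1 array left out VTC2 ran from -0.0081 to 0.055, below 0 without GmbHLHm1 replicate 1, and PPN1 from -0.070 to 0.026, above 0 at 0.0046 and 0.026 without GmbHLHm1 replicate 2 and 3. The count over all genes was less steady. It was 659 as reported, 823 with array weights, 820 with the trend and robust prior, 284 without moderation, 349 with all probe sets in the fit, 243 at a threshold of 0.01, and 251 to 723 when 1 array was left out (251, 341 and 293 without empty vector replicate 1, 2 or 3). The stricter threshold passes fewer genes by construction, and for the other settings the cause was not tested. Under quantile normalization 331 genes were higher and 332 lower, in place of 406 and 253, and under median centring 343 and 310, so the split between the directions depends on scaling. With the replicate number as a block, 427 genes passed, among them the same 4. No pairing of the samples by number was seen, though 3 arrays per group cannot exclude one. Same-numbered arrays deviated together with r = -0.07, -0.08 and 0.14 across genes, and 2 of the 6 arrays correlated best with their own number. Signal over background was lowest for PHM6 among the 9 genes.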
